A study of Mus musculus with 14 samples.

Results

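Genes of cholesterol supply were followed in mammary epithelial cells of mice that overexpress Usp22, a deubiquitinase of histones and other proteins. The 8 genes were Srebf2, Insig1, Hmgcs1, Idi1, Fdps, Sqle, Lss and Cyp51, taken by gene symbol, and 8 of 8 were among the 16124 genes of the deposited table. RNA was sequenced from 7 WT and 7 Usp22 OE/OE nulliparous females of 3.5 months, 1 library per mouse, paired as littermates with the pair numbers 1, 3, 4, 5, 6, 7 and 8. The OE/OE mice carry a FLAG- and MYC-tagged mouse Usp22 cDNA at both ROSA26 alleles, behind the CAGGS promoter and a STOP cassette that Zp3-Cre, active in the oocyte, removes. The transgene is therefore on in all tissues and not only in the mammary epithelium, so a change in these cells and a change carried from the rest of the animal cannot be told apart. The littermates are labelled wild type, and whether any of them carried the Cre is not given in the sources used here. Cells were prepared as organoids from digested glands and dissociated before RNA extraction. In such bulk RNA, fewer cells of a type and less RNA per cell cannot be told apart.

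Cholesterol is built from acetyl-CoA through mevalonate, isoprenoid pyrophosphates, squalene and lanosterol. When membranes of the endoplasmic reticulum are poor in sterol, the membrane-bound protein SREBP-2, encoded by Srebf2, is carried by Scap to the Golgi and cut, and its free domain enters the nucleus and binds sterol regulatory elements in the promoters of synthesis and uptake genes, usually beside NF-Y and Sp1. When sterol is plentiful, Insig proteins hold Scap back in the endoplasmic reticulum. In the mammary gland the pathway supplies cholesterol for the membranes of growing epithelium and, in lactation, for milk.

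Among the 8 genes, Srebf2 and Insig1 belong to this control. Hmgcs1 makes HMG-CoA, Idi1 isomerizes isopentenyl pyrophosphate, and Fdps joins these units to farnesyl pyrophosphate. Sqle, the squalene epoxidase, Lss, the lanosterol synthase, and Cyp51, the lanosterol demethylase, carry the product on to sterols. In GRCm38 (mm10) with the GENCODE M21 annotation, all are protein-coding. Srebf2 spans chr15:82147181-82205379 and Insig1 chr5:28071363-28078662, both on the plus strand. Hmgcs1 lies at chr13:119690379-119708260 and Idi1 at chr13:8885501-8892451, also on the plus strand, as are Sqle at chr15:59315077-59331192 and Lss at chr10:76531588-76557138. Fdps at chr3:89093588-89101959 and Cyp51 at chr5:4081145-4104746 are on the minus strand.

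The promoters are shown to describe the genes, and whether their sequence bears on any difference between libraries was not tested. RefSeq windows on GRCm38.p6, from 250 bases before to 50 bases after a gene's start, were at hand for 6 of the 8 genes, all but Sqle and Fdps, and were searched on both strands. The sterol regulatory element letters TCACNCCAC were found in 1 of the 6 (Hmgcs1), against 1.24% of 32851 promoter windows. Their core CACNCCAC, which lies inside them, was found in 2 of the 6 (Hmgcs1 and Insig1), against 6.24%. The NF-Y box CCAAT was present in 6 of 6, against 37.4% of all windows, and the Sp1 box GGGCGG in 6 of 6, against 35.7%. These are matches of letters and not measured binding. In the 2 lines of core sequence, written 5′ to 3′ on the plus strand, capitals mark the core, which ends 129 bases before the start in Hmgcs1 (chr13:119690175-119690262) and lies on the opposite strand from 9 to 2 bases before the start in Insig1 (chr5:28071392-28071411). Starts are those of RefSeq; by GENCODE the Insig1 core, and the Idi1 and Cyp51 boxes printed after it, lie just inside the annotated gene.
Hmgcs1 core: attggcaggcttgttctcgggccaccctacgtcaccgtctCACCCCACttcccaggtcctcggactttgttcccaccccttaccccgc
Insig1 core: cgtgtagtgtcGTGGCGTGt

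All 6 windows held an NF-Y box, and the last box before the start is in capitals in each line that follows, on the strand of the gene, with ATTGG standing for CCAAT on the opposite strand. The positions are chr15:82147122-82147150 for Srebf2, chr5:28071184-28071212 for Insig1, chr13:119690294-119690322 for Hmgcs1, chr13:8885580-8885605 for Idi1, chr10:76531531-76531559 for Lss and chr5:4104710-4104738 (minus strand) for Cyp51.
Srebf2: cttcgcgcgccgATTGGctaatgcaagcc
Insig1: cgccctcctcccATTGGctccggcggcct
Hmgcs1: tccccgcctctcATTGGctgaaagcggat
Idi1: gtccaaggtgccATTGGctggcgacc
Lss: ggtgatgctctgATTGGccgagctcgcat
Cyp51: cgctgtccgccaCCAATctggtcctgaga
Hmgcs1 holds a further box after the start, 10 to 14 bases on. In 5 of the 6 genes the printed box read on the opposite strand, as ATTGG, and in Cyp51 it read as CCAAT. Among the other 31 genes of the pathway with a window, 19 held the NF-Y box, 24 the Sp1 box, 1 the core (Acat2) and 0 the longer element.

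The libraries held 20125106 to 41835978 counted fragments, and the values are fragments divided by the authors' size factors, called normalized counts here. The shallowest were the WT libraries of pairs 1 and 8. Usp22 was at 3500 to 5380 normalized counts in WT and at 74948 to 144288 in OE/OE mice, so each library matched its genotype. Markers of epithelium (6 genes) summed to 280802 to 466256 normalized counts in WT and 290070 to 464509 in OE/OE libraries, and none of these markers was at 0. Stromal markers were present too: the 6 fibroblast markers summed to 85531 to 172553 in WT and 56050 to 127155 in OE/OE libraries. The library of the OE/OE mouse of pair 4 stood apart. Against its littermate, the 6 markers of dividing cells were higher in it by 5.50 on the log2 scale, whereas the 5 endothelial markers differed by -1.81 and the 7 adipocyte markers by -2.16. For the dividing cells both mice of the pair were extreme. The OE/OE mouse had 10539 normalized counts, and its WT littermate had 233, the lowest of the 14 libraries. The WT libraries had a median of 1877 and reached 6042. The comparisons that the OE/OE library of pair 4 moved are given with and without pair 4.

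Levels of the 8 genes were compared per kilobase of exon, as normalized counts over all 14 libraries (mean ± SD, n = 14). Srebf2 stood at 1550 ± 350 per kb and Hmgcs1 at 1286 ± 571, which differ by less than 1 SD of Hmgcs1. Sqle at 624 ± 126 and Cyp51 at 598 ± 146 followed, again within their spread. Insig1 (447 ± 140) and Idi1 (445 ± 118) were next and were alike. Lss was at 64.4 ± 26.4 per kb and Fdps at 4.57 ± 2.32. By this measure neither overlapped its neighbours in the order. The highest Lss library (117) was below the lowest Idi1 library (191), and the highest Fdps library (9.89) was below the lowest Lss library (34.4). The length taken was that of all annotated exons, those of noncoding transcripts included. For Lss 4833 of 10923 windows of 75 bases lay in protein-coding transcripts, against 3230 of 3644 for Idi1. The gap between Lss and Idi1 thus depends on the length taken.

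The low level of Fdps cannot be read as the level of its mRNA. Of all the 75-base windows in its protein-coding transcripts, 58.5% also occur in another annotated gene. Most of these are shared with Gm43738, a protein-coding gene on the same strand that covers 26.7% of the Fdps exon bases, and others with the pseudogenes Gm3571 and Gm5873. A fragment that fits more than 1 gene is not counted by htseq-count in its usual mode, and whether this set the Fdps value was not tested. Fdps rested on 10 to 50 fragments per library. Over the same protein-coding transcripts, shared windows made up 26.6% of those of Idi1, mainly with Gm13502, and 11.2% of those of Hmgcs1, mainly with Gm48342 on the opposite strand. Over all annotated transcripts, noncoding ones included, the shares were 23.5% for Fdps, 23.6% for Idi1 and 9.79% for Hmgcs1. For Idi1 and Hmgcs1 the count is thus also uncertain in part, while Srebf2 and Sqle shared no window and Insig1, Cyp51 and Lss shared 0.877%, 2.39% and 2.61% over protein-coding transcripts.

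The comparison of genotypes asked how the transcripts of these genes differed in Usp22 OE/OE cells. None of the 8 genes passed an unadjusted limma p of 0.05, the threshold the study used, with the littermate pair as a block. Over all genes 614 of 16124 (3.81%) passed, 315 higher and 299 lower, and 2 had a Benjamini-Hochberg adjusted p under 0.05. The adjusted p was 1.0 for each of the 8. The fold changes, on the log2(normalized count + 1) scale, ran from -0.30 (Fdps) to 0.18 (Sqle and Cyp51), with 4 above 0. Their median was 0.04, beside 0.00 over all genes. None changed the same way in all 7 pairs, against 1.51% of all genes. edgeR and DESeq2, run on the fragments behind the values, gave 0 of the 8 an unadjusted p of 0.05 or less as well, the smallest being 0.155 and 0.177, both for Sqle.

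**Figure D1:**
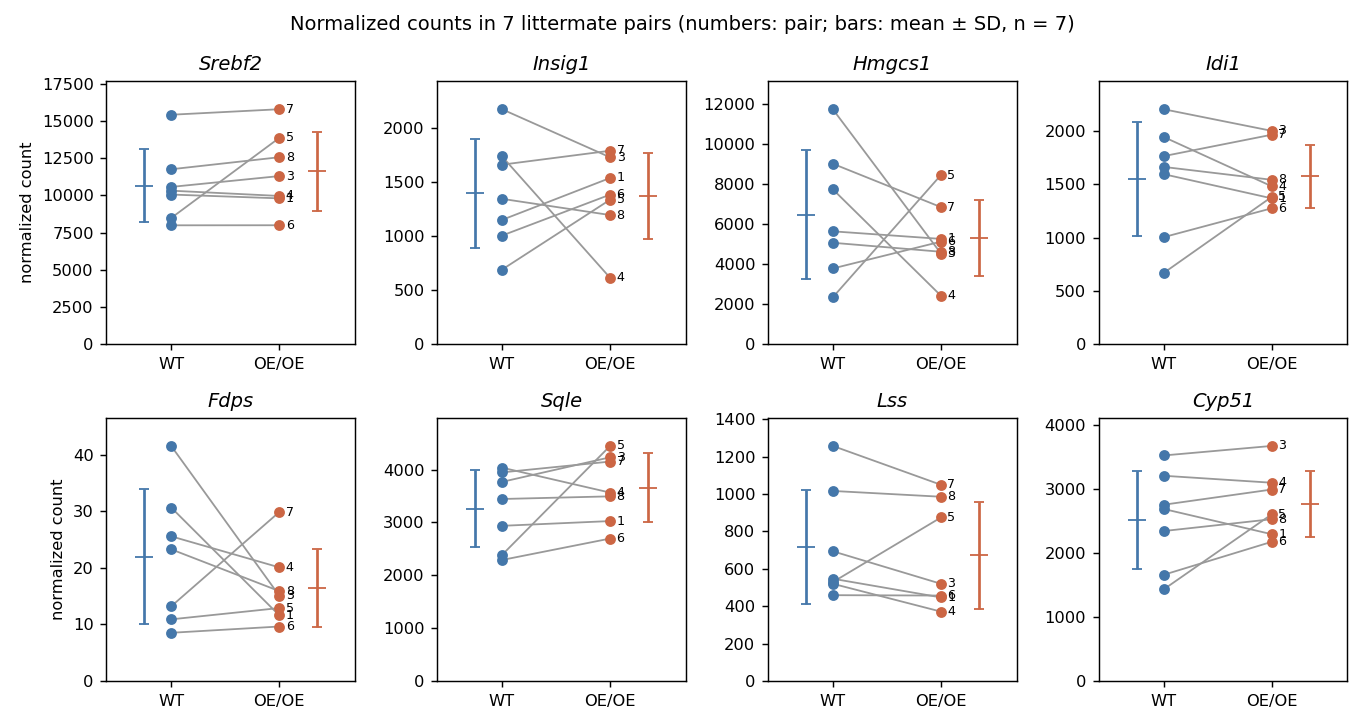
Normalized counts of the 8 genes in each library, with WT on the left and OE/OE on the right of each panel, lines joining littermates, pair numbers at the OE/OE points, and bars for the mean ± SD of 7 mice. The groups overlap in each panel, and the lines of pair 5 rise in all 8 while those of pair 4 fall.

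Srebf2, the source of SREBP-2, had 10059, 10572, 10320, 8483, 7992, 15424 and 11759 normalized counts in the WT mice of pairs 1, 3, 4, 5, 6, 7 and 8. Their OE/OE littermates, in the same order, had 9804, 11301, 9965, 13867, 7996, 15794 and 12568. Both mice of pair 7 were the highest of their genotype and both mice of pair 6 the lowest, and the groups overlapped over nearly their whole range. The log2 fold change was 0.12 (standard error 0.10, 95% interval -0.10 to 0.35). By exact two-sided sign flips of the 7 pairs p was 0.203, and by limma 0.255. Outside pair 5, at 0.71, the pair ratios stayed between -0.05 and 0.10.

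Insig1, the sterol-regulated anchor of Scap, had 1150, 2174, 1738, 690, 1005, 1661 and 1345 normalized counts in WT (pairs 1, 3, 4, 5, 6, 7 and 8). In OE/OE it had 1538, 1729, 614, 1337, 1384, 1790 and 1195. The lowest WT library (pair 5) and the lowest OE/OE library (pair 4) were at a similar level, and the others of both genotypes lay from 1005 to 2174. The log2 fold change was -0.01 (standard error 0.24, 95% interval -0.55 to 0.54; exact sign-flip p = 0.984, limma p = 0.972), and the pairs ran from -1.50 in pair 4 to 0.95 in pair 5. Without pair 4 the fold change was 0.24 (exact sign-flip p = 0.281).

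Hmgcs1, the HMG-CoA synthase of the cytosol, varied most. Its WT libraries were at 5648, 11757, 7750, 2348, 3790, 9030 and 5075 normalized counts (pairs 1, 3, 4, 5, 6, 7 and 8), and their OE/OE littermates at 5269, 4538, 2426, 8466, 5133, 6859 and 4626. WT held both the highest library (pair 3) and the lowest (pair 5), a span of 5.01-fold over the 14 libraries. The log2 fold change was -0.20 (standard error 0.36, 95% interval -1.0 to 0.60), and the exact sign-flip p was 0.703 (limma p = 0.59). It was lower in 5 of 7 pairs. The fold change was -0.0 without pair 3, 0.05 without pair 4 and -0.54 without pair 5. Its direction thus rested on pairs 3 and 4, and its size also on pair 5.

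Idi1 had 1595, 2204, 1944, 668, 1004, 1764 and 1663 normalized counts in the WT mice of pairs 1, 3, 4, 5, 6, 7 and 8, and 1368, 2001, 1481, 1382, 1275, 1965 and 1542 in the OE/OE mice. The 5 other WT libraries reached or passed 1595, and those of pairs 5 and 6 lay below each OE/OE library. The WT mean was 1549 ± 535 and the OE/OE mean 1574 ± 293 (SD, n = 7), and the log2 fold change of 0.10 (standard error 0.16; exact sign-flip p = 0.719) was -0.06 without pair 5. Fdps was at 8.52 to 41.6 (median 23.3) in WT and at 9.63 to 29.9 (median 15.1) in OE/OE, and its log2 fold change was -0.30 (standard error 0.32; exact sign-flip p = 0.375).

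Sqle, an oxygen-dependent and strongly regulated step after squalene, was at 2937, 3769, 4039, 2385, 2290, 3949 and 3445 normalized counts in WT and at 3027, 4235, 3566, 4450, 2696, 4154 and 3495 in OE/OE, in the same order of pairs. It was higher in 6 of 7 OE/OE mice, by 0.02 to 0.90 on the log2 scale, and lower by 0.18 in pair 4. The groups overlapped, with means of 3259 ± 729 (WT) and 3660 ± 654 (OE/OE; SD, n = 7). The log2 fold change was 0.18 (standard error 0.12, 95% interval -0.08 to 0.44, limma p = 0.154, exact sign-flip p = 0.156). It was 0.06 without pair 5. Without pair 4, the only pair that fell, it was 0.24 (exact sign-flip p = 0.0312, limma p = 0.063). The 6 pairs left all rose, which sets the sign-flip p at the smallest that 6 pairs allow. Both p rest on the choice of pair, and no conclusion is drawn from them.

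Lss went the other way in sign. Its WT mice had 547, 694, 520, 529, 459, 1258 and 1017 normalized counts, and their OE/OE littermates 447, 520, 371, 875, 457, 1050 and 986. Both mice of pairs 7 and 8 were at 986 or above and the rest at 875 or below, so littermates lay near each other except in pair 5. Lss was lower in 6 of 7 OE/OE mice, with a log2 fold change of -0.11 (standard error 0.14, 95% interval -0.42 to 0.20; exact sign-flip p = 0.469). Without pair 5, the only pair that rose, it was -0.25 (exact sign-flip p = 0.0312, limma p = 0.0279). The 6 pairs left all fell, so the sign-flip p again had to be the smallest that 6 pairs allow. Here too both p rest on the choice of pair, and no conclusion is drawn from them. In that setting 484 of all genes passed the limma threshold. By limma, Lss was the only one of the 8 genes to pass with any single pair left out.

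Cyp51 had 2687, 3523, 3206, 1430, 1658, 2753 and 2342 normalized counts in WT and 2292, 3672, 3097, 2604, 2174, 2991 and 2527 in OE/OE. As with Idi1, the WT libraries of pairs 5 and 6 were below each OE/OE library and the other 5 were among them. The log2 fold change was 0.18 (standard error 0.12, 95% interval -0.09 to 0.45, limma p = 0.163, exact sign-flip p = 0.234), higher in 5 of 7 pairs. For the 8 genes the intervals thus left room for changes of different size. For Srebf2 they reached no further than 0.35 in either direction, whereas for Hmgcs1 and Fdps they ran to -1.0 and -1.01.

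**Figure D2:**
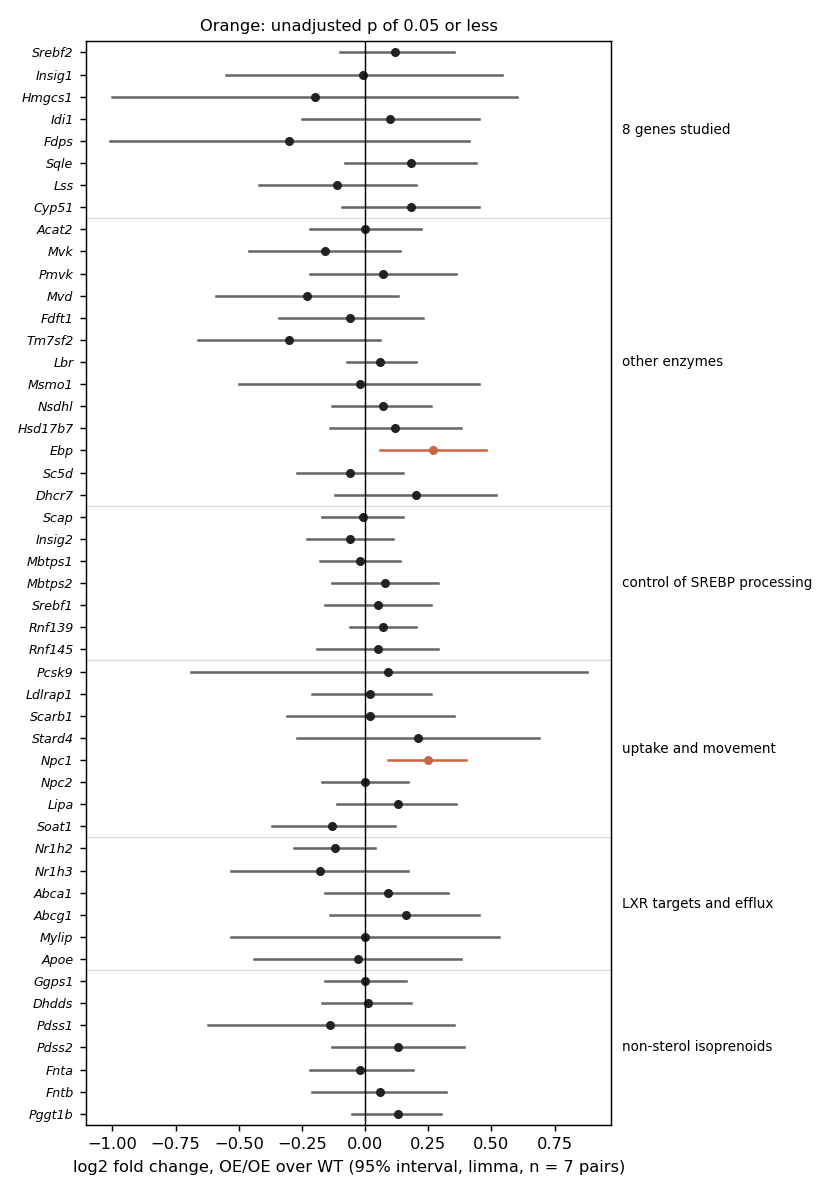
Log2 fold change of OE/OE over WT (points) with its 95% interval from limma (lines, 7 pairs) for the 8 genes and 41 other genes of the pathway in 5 lists. The intervals of all 8 genes cross 0, and the 2 orange genes, Ebp and Npc1, passed the unadjusted threshold of 0.05.

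In 2 of the 7 pairs the 8 genes all moved one way. In pair 5 all 8 were higher in the OE/OE mouse, from 0.23 (Fdps) to 1.85 (Hmgcs1) on the log2 scale, with a median of 0.88. In that pair 7 of the 8 were higher by 0.5 or more, while 10.2% of all genes were and the median of all genes was -0.02. In pair 4 all 8 were lower, from -0.05 (Srebf2 and Cyp51) to -1.68 (Hmgcs1), with a median of -0.36 beside 0.04 over all genes. Of the 8, 2 were lower by 0.5 or more in that pair, as were 23.8% of all genes. Over the 7 pairs, 47.5% (pair 1) to 52.9% (pair 8) of all genes were higher in the OE/OE mouse. In pair 6 the count was 7 higher and 1 lower (median 0.29), and in pair 7 it was 6 and 2 (median 0.09). Pairs 1, 3 and 8 leaned the other way, with 6, 5 and 5 genes lower and medians of -0.16, -0.23 and -0.08. Genes of 1 pathway in the same pair of mice are not independent, so these counts describe the pairs and carry no test.

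The difference in pair 5 came with a low WT mouse. When each gene was standardized on the log2 scale over the 14 libraries and the 8 were averaged, the WT mouse of pair 5 was the lowest library, at -1.57 SD units, and its OE/OE littermate was at 0.42. The WT mouse of pair 6 followed at -1.24 and the OE/OE mouse of pair 6 at -0.70. The highest were the WT mouse of pair 3 (0.99) and the OE/OE mouse of pair 7 (0.98). In pair 4 the WT mouse was at 0.51 and the OE/OE mouse at -0.55. The WT library of pair 5 was also the deepest, at 41835978 fragments. In pair 5 the markers of dividing cells differed by -1.09, those of fibroblasts by -1.04, of adipocytes by -0.89 and of the alveolar lineage and milk (3 of 6 in the table) by -1.33, while those of epithelium differed by 0.05 and of luminal cells by 0.35. In pair 4 the alveolar markers differed by 0.36, and the fibroblast markers by -0.63. The part of these cell types, of depth and of the unusual library of pair 4 in the pattern was not tested.

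**Figure D3:**
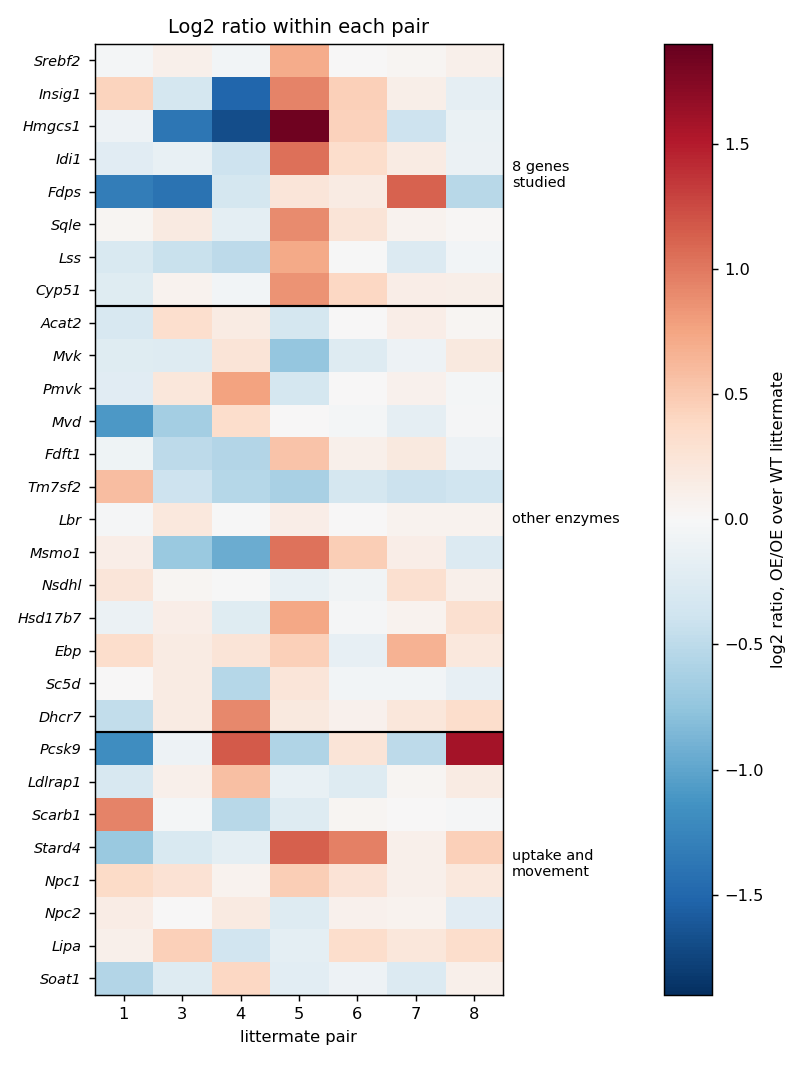
Log2 ratio of OE/OE over its WT littermate in each of 7 pairs (columns) for the 8 genes, 13 other enzymes and 8 genes of cholesterol uptake and movement, in red where higher and blue where lower. Hmgcs1 runs from -1.68 in pair 4 to 1.85 in pair 5, and Msmo1 shows the same change of colour.

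The pattern was not shared by all genes of the pathway. In pair 5, 10 of the 15 other enzymes were higher (median 0.18), as were 7 of 8 genes in the control of SREBP processing (0.23), but 3 of 9 genes of uptake and movement (-0.18). In pair 4, 6 of the 15 enzymes and all 7 genes of the non-sterol isoprenoid branch were higher, the latter with a median of 0.37. Msmo1, the sterol methyl oxidase, went from -0.95 in pair 4 to 1.03 in pair 5. By contrast Pmvk, the phosphomevalonate kinase, went from 0.76 to -0.34 and Mvk, the mevalonate kinase, from 0.25 to -0.73. Msmo1, Pmvk and Mvk are named here because of their values in these pairs.

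The spread of each gene was divided into a part between litters, a part between genotypes and the rest, which is how much the difference between littermates varied by pair. If mice of a litter were no more alike than others, 46.2% would fall between litters by the count of degrees of freedom alone. The part was 86.9% for Lss, 79.9% for Srebf2, 74.4% for Cyp51, 72.1% for Idi1 and 62.5% for Sqle. Over all genes its median was 73.9%, and these 5 genes lay on both sides of it. It was 52.2% for Fdps, 47.0% for Insig1 and 26.6% for Hmgcs1, the last below the share of equal spread. Littermates shared a litter and may have shared a day of preparation, which the labels do not give, so these cannot be told apart. The part between genotypes was at most 9.14% (Sqle), with a median of 3.16% beside 1.43% over all genes. Equal spread would give it 7.69%, and the median of the 8 lay below that share. The part between litters rested in places on 1 pair: for Srebf2 it was 98.9% without pair 5, and for Insig1 65.4% without pair 4. For Hmgcs1 it stayed between 16.7% and 35.1% with each pair left out in turn.

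The same contrast appeared in the SD of the 7 pair ratios. It was 1.17 on the log2 scale for Hmgcs1, larger than in 99.3% of 1122 genes whose mean log2 level was within 0.5 of its own. For Insig1 it was 0.78, larger than in 95.7% of 2334 such genes, and for Idi1 0.48, larger than in 87.5% of 2237. Srebf2 had the smallest SD of the 8, at 0.27 and the 44.3% mark of its level. Pairs 4 and 5 carried much of these values. Without pair 4 the SD of Insig1 was 0.47, larger than in 91.7% of genes of like level. Without pair 5 the SD was 0.81 for Hmgcs1 (95.9%), 0.27 for Idi1 (56.2%), 0.21 for Cyp51 (44.4%), 0.19 for Lss (23.5%), 0.14 for Sqle (21.3%) and 0.06 for Srebf2 (1.38%). Pair 5 held the highest ratio of each of these genes, so lower marks without it follow in part from that choice. With any other pair left out, the mark of Srebf2 was 45.9% (pair 6) to 64.1% (pair 4). Hmgcs1 kept a large spread also without pair 5. The correlation between littermates over the 7 pairs, given as a description, was 0.76 for Lss, 0.69 for Cyp51 and 0.66 for Srebf2, but -0.06 for Insig1 and -0.48 for Hmgcs1. With 7 points a single pair can move such a value: for Insig1 it was 0.63 without pair 4, and for Hmgcs1 -0.10 without pair 5.

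**Figure D4:**
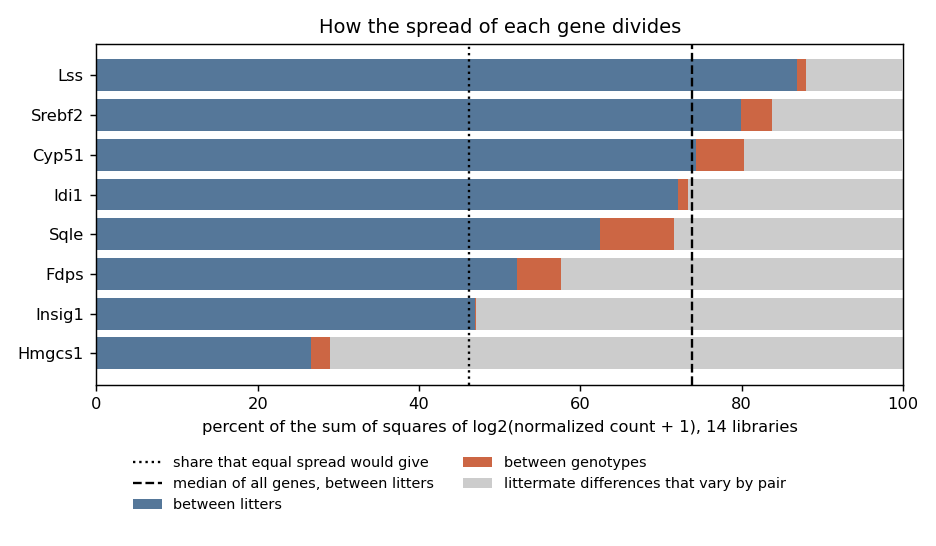
Percent of the spread of log2(normalized count + 1) over 14 libraries that lay between litters (blue), between genotypes (orange) and in littermate differences that varied by pair (grey), for each of the 8 genes. The dotted line is the share between litters under equal spread (46.2%) and the dashed line the median of all genes (73.9%), and Hmgcs1 alone lies left of both.

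Over the 14 libraries, which share litters and size factors, the 28 pairings of the 8 genes had Pearson correlations from 0.17 (Lss with Cyp51) to 0.93 (Idi1 with Cyp51), with a median of 0.54. Insig1 with Hmgcs1 (0.87), Srebf2 with Lss (0.84) and Sqle with Cyp51 (0.84) were also high. Of the 28, all were above 0, also with pair 5 left out (median 0.46) or pair 4 left out (median 0.65). Among the ratios of the 7 pairs the median was 0.82, and all 28 were again above 0. This closeness rested on pair 5 and, with it, pair 4. Without pair 4 the median was 0.80, without pair 5 it was 0.54, with 27 of 28 above 0, and without both pairs it was 0.35, with 22 of 28 above 0 and a lowest value of -0.95.

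The genes most like the 8 were found by the correlation of each of the other 16116 genes with their mean standardized level, whose median was 0.00 and whose 99th percentile was 0.60. Among the first 10 were Tm9sf2 (0.84), Cers2 (0.83), Nog (0.81), Vma21 (0.81), Rab10 (0.80), Ppp1cb (0.79), Slc39a7 (0.79) and Nipal2 (0.78). Tm9sf2, a membrane protein of endosomes and the Golgi, ran from 5935 to 7933 normalized counts over the 14 libraries (median 7291), and Cers2, a ceramide synthase, from 2874 to 5098 (median 3681). Nog and Slc39a7 were low, with medians of 38.8 and 79.4. None of these genes passed the limma threshold between genotypes, with log2 fold changes from -0.15 (Slc39a7) to 0.05 (Tm9sf2 and Ppp1cb). The list depended on single litters. With pair 4 left out, 1 of the first 10 stayed among the first 10 and none of the 8 just named did, and with pair 5 left out 4 stayed, with Vma21 at rank 1, Rab10 at rank 3 and Tm9sf2 at rank 8. Of the other pathway genes, Hsd17b7 (rank 15, r = 0.76), Fdft1 (rank 32, 0.72) and Msmo1 (rank 50, 0.70) were high too. Fdft1 shared 21.8% of its windows with other genes. Scap, the escort of SREBP-2, was at -0.48 and Abca1, the cholesterol exporter, at -0.49. The lowest pathway gene was itself an enzyme of sterol synthesis, Tm7sf2 (-0.54). The enzymes Pmvk (-0.12), Acat2 (-0.03), Lbr (0.06) and Mvk (0.12) were not high either. The enzymes thus did not follow the 8 as a group.

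The remaining genes of the pathway were read by role, in lists chosen with results of these data known, and 45 of 45 were in the table. Of these, 2 passed the unadjusted threshold, both higher in OE/OE, which is close to the share of 3.81% among all genes, and no adjusted p was under 0.05. One was Ebp, the sterol isomerase, among 15 enzymes (median log2 fold change 0.00). It had 1228, 1388, 1660, 855, 1439, 1867 and 1616 normalized counts in WT and 1552, 1545, 1958, 1179, 1301, 2958 and 1858 in OE/OE. Ebp was higher in 6 of 7 pairs, by 0.27 on the log2 scale in the mean (standard error 0.09, limma p = 0.017, exact sign-flip p = 0.0312). The call was lost without pair 7 (0.21; limma p = 0.0563, exact sign-flip p = 0.0625) and without the pair as a block.

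The second was Npc1, the exporter of cholesterol from late endosomes and lysosomes, among 9 genes of uptake and movement (median 0.06). Its 7 WT mice were at 2063, 2157, 1903, 2333, 2232, 2694 and 2052 normalized counts and their littermates at 2642, 2605, 1983, 3240, 2670, 2882 and 2355. Each OE/OE mouse was above its own littermate although the groups overlapped. The log2 fold change was 0.25 (standard error 0.07, limma p = 0.00563), and the exact sign-flip p of 0.0156 is the smallest that 7 pairs allow. Npc1 stayed at p of 0.05 or less in each of 19 alternative settings, with log2 fold changes of 0.20 to 0.28, and its limma p adjusted over all genes was 1.0.

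Npc1 was not among the genes that followed the 8 across libraries (r = 0.18). Npc2, its partner in the lysosome lumen, had a log2 fold change of 0.00 (standard error 0.07), and Lipa, the lysosomal acid lipase, 0.13 (standard error 0.10; exact sign-flip p = 0.281). In the remaining lists no gene passed. The median was 0.04 for 8 genes in the control of SREBP processing. It was -0.02 for a list of 6 genes that holds the LXR receptors themselves as well as LXR targets and efflux genes. That list was led in abundance by Apoe (-0.03, standard error 0.18). The median was 0.01 for 7 genes of the non-sterol branch, led by Pggt1b (0.13, standard error 0.08). Among the controls of SREBP the fold changes stayed from -0.06 to 0.08, a narrower range than that of the 8 genes.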

How the data were processed

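RNA from mammary epithelial cells was read as 75-base pairs. Per the labels and methods, the authors mapped reads to mm10 (TopHat 2.0.10), counted fragments on GENCODE M21 genes (htseq-count, HTSeq 0.6.0), kept genes with at least 10 fragments in 7 samples and divided by DESeq 1.18.0 size factors. The strand setting and the handling of fragments shared by genes are not given in the sources used here. The deposited signal is thus a normalized count, and 100% of values in each library were whole multiples of 1 fragment (tolerance 0.01), which gave the fragments and depth.

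The test was limma 3.58.1 in R 4.3.3, with a trend, on log2(normalized count + 1) over all genes, with the littermate pair as a block. It replaced a paired test per gene. The threshold was an unadjusted p of 0.05, beside Benjamini-Hochberg adjustment. Single genes were also tested by exact sign flips of 7 pairs (128 patterns, two-sided, smallest p 0.0156). edgeR 4.0.16 and DESeq2 1.42.0 used the recovered fragments. With the pair as a block, intervals and tests rest on how the difference between littermates varied over the 7 pairs. In limma this variance is also drawn toward that of other genes of like level. Its standard errors, intervals and p are thus not those of the 7 pairs alone. For a gene whose pairs vary more than is usual at its level, such as Hmgcs1, the limma interval is narrower than the pairs alone would give. The limma fit was also run on simulated counts, with changes larger than those of the genes followed here. It was not tested at changes of their size.

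Pairing comes from the labels and the stated litters. Deviations from the genotype mean correlated at 0.17 to 0.75 (median 0.52) between littermates across genes, and at a median of -0.15 between other mice. Such deviations sum to 0 within a genotype, so the negative median follows in part from the centring and is no independent baseline. The 8 genes, pathway lists, markers and motifs were chosen with earlier results of these data known. Named genes were the 8, list genes with a p of 0.05 or less, the highest-mean gene of each list, and the 10 genes most like the 8 by Pearson r. The results of some genes on these lists are not reported here. Genes named outside this rule were chosen after their values were seen. Shared 75-base windows were found by exact match, on both strands, of GENCODE M21 transcripts. Alternatives covered the pseudocount (0.1 and 10), filters, block, trend, scaling, tool, an adipocyte covariate and each pair left out. Leaving out pairs 4 and 5 together, leaving pair 5 out of the ranking of like genes, leaving Fdps out of their profile, and the spread and correlations of the 8 with pairs left out were added after the data were seen.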

Additional observations from a re-analysis of the deposited data

Results flagged for a closer look

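Insig1 in the OE/OE mouse of pair 4 stood apart from the other OE/OE mice by Dixon's ratio. It had 614 normalized counts, the nearest OE/OE mouse had 1195, and the gap was 0.622 of the range of the 7 mice, above the 95% critical value for 7. It was the only one of 16 groups tested (8 genes in both genotypes), and chance alone gives about 1 in 20. This mouse was also the lowest OE/OE mouse for Hmgcs1 and Lss. Its library is the one with 10539 normalized counts over the markers of dividing cells, the highest of the 14.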

How the results depend on the processing

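With no replicate block 182 genes passed, against 614 with the pair as a block, and 0 of the 8 either way. Leaving out 1 pair gave 381 (pair 6) to 1366 (pair 4) genes, with 1196 without pair 1, and leaving out pairs 4 and 5 gave 953. None of the 8 genes passed in any setting except Lss, so leaving out 1 pair gave 0 to 1 of the 8. Lss passed without pair 5 (-0.25) and, as 1 of the 8, without pairs 4 and 5 (-0.20). Pair 5 was the only pair in which Lss rose, so both passes rest on leaving it out. The median of the 8 was -0.11 (without pair 5) to 0.16 (without pair 4), and 0.01 to 0.10 in the other settings that kept all 7 pairs. Small fold changes turned in sign without passing. Insig1 (-0.01) was 0.01 with median centring, 0.00 with edgeR and with DESeq2, 0.13 with the adipocyte covariate, 0.10 without pairs 4 and 5, and from -0.17 to 0.24 with 1 pair left out. Over single pairs left out, Hmgcs1 ran from -0.54 to 0.05, Idi1 from -0.06 to 0.18 and Apoe from -0.13 to 0.14. Without pairs 4 and 5, Apoe was at 0.04. Ebp lost its call without pairs 4 and 5 (0.24), and Pggt1b passed without pair 1 (0.18). Leaving out the block ended the call of Ebp (0.27) and of no other gene named. Of the 10 genes most like the 8, 7 stayed among the first 10 after removal of the genotype means and 7 without Fdps in the profile. The cause was not tested. Fdps, at 10 to 50 fragments, was left out by a minimum mean of 50 normalized counts.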
